A study of Mus musculus with 48 samples.

Results

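Cyproheptadine and Pizotifen were compared directly by RNA-Seq in STHdhQ111 cells, with 3 samples of each, 6 of the 48 samples of the series. The pair was chosen by structure: both are tricyclic compounds with an N-methylpiperidine ring joined to the tricycle through a double bond, and pizotifen has a thiophene ring in place of a benzene ring of cyproheptadine and a saturated bridge where cyproheptadine has a double bond. Both are known as antagonists of histamine H1 and serotonin receptors. STHdhQ111 is a conditionally immortalized murine striatal progenitor line with a knock-in of polyglutamine-expanded huntingtin. Every sample compared here came from this line, so it is a model made of a single line, and the vehicle control (Q111SST) carries the same expanded allele. The fit held all 48 samples, including 3 vehicle samples (Q7SST) of the wild-type line STHdhQ7. These enter the shared estimates of the spread and of the collection day effects and are set against no condition. All cells were kept for 24 h in serum-free medium with 10 uM cyproheptadine, 5 uM pizotifen or vehicle, and 3 loxapine samples (10 uM) served to define a response in other libraries. The doses of the pair differed, so compound and dose cannot be told apart, and each difference below is one between these treatment conditions. Nothing in the labels says that the 3 samples of a condition were separate cultures beyond their collection day and time. P-values rest on the spread between samples of a condition, pooled for each gene over the conditions of the fit.

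The gene groups below belong to a few well-known systems. When a cell senses too little cholesterol in the endoplasmic reticulum (ER), SREBP2 enters the nucleus and raises the enzymes of the mevalonate pathway and of the steps from squalene to cholesterol. ATF4, the transcription factor of the integrated stress response, raises genes for amino acid synthesis and uptake together with stress regulators such as Ddit3 and Trib3, while unfolded proteins in the ER raise chaperones such as Hspa5. Type I interferon acts through transcription factors such as STAT2 and IRF9 on a shared set of antiviral genes, many of them with response elements close to the start of transcription.

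Values are the deposited normalized abundances on a log2 scale, the depth of the libraries is unknown, and a difference of 1 is a doubling. Over the genes tested, samples of a condition had correlations of at least 0.9982 for cyproheptadine and 0.999 for pizotifen, and the summed linear abundance of the 6 samples differed by at most 1.025 times. Among progenitor markers, Vim lay at 15.1 to 15.4 in the 6 samples, with Nes at 4.69 to 5.19 and Sox2 at 4.67 to 4.96. Sox9 lay between them, with means of 9.18 in cyproheptadine and 9.48 in pizotifen. The striatal neuron marker Ppp1r1b lay at 1.84 to 2.05, and the mean over the 3 tested striatal neuron markers was 4.62 to 4.77. The fibroblast marker Col1a1 was high at 14.0 to 14.5. In such bulk samples, fewer cells of a type and less RNA per cell cannot be told apart.

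Promoters of 4 genes are shown first, since they carry short letter patterns known from the sterol, stress and interferon systems. Each runs from 250 bases before to 50 bases after the start, 5′ to 3′ on the gene's strand, from RefSeq on GRCm38.p6. Capitals mark matches on either strand to TCACNCCA (known from sterol response), TGATGCAA (from ATF4-type elements), TCACGTGA (from lysosomal genes) or GAAANNGAA (the core of interferon response elements, added after the values were seen). Hmgcs1 (chr13:119690101-119690400, plus strand) is an early enzyme of the mevalonate pathway. Atf3 (chr1:191183284-191183583, minus strand) is a stress-induced transcription factor and Slc7a11 (chr3:50443564-50443863, minus strand) the cystine transporter. Ifit1 (chr19:34640639-34640938, plus strand) is an interferon-induced protein that binds viral RNA.
Hmgcs1: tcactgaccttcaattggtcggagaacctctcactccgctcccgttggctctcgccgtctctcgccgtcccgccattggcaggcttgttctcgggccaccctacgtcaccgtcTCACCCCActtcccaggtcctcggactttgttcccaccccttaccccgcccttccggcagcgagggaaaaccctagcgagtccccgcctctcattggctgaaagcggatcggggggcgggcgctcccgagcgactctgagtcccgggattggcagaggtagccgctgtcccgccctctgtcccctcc
Atf3: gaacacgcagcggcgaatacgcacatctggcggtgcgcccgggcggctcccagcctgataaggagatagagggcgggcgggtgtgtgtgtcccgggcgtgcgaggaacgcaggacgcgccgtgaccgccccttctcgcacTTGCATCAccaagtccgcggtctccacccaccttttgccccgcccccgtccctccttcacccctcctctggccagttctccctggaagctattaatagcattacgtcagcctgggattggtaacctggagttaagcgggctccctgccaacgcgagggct
Slc7a11: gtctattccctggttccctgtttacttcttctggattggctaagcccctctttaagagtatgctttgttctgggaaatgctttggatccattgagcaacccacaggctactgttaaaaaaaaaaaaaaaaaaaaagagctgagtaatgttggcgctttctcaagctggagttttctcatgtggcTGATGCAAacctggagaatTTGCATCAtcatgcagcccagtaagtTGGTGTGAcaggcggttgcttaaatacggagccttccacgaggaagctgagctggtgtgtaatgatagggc
Ifit1: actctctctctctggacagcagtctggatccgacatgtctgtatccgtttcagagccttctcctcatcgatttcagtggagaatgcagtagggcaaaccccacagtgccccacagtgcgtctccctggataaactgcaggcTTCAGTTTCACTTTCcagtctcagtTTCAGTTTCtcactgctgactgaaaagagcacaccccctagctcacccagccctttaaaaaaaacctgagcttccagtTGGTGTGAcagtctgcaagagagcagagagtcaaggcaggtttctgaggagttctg

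In the Ifit1 promoter GAAANNGAA was found on the minus strand at 3 places, and the matches at -109 to -101 and -103 to -95 overlap each other. The further match there, TGGTGTGA, which also stands in the Slc7a11 promoter, is TCACNCCA on the minus strand. Of the 13060 promoters of tested genes, 7.01% hold GAAANNGAA, 0.62% TGATGCAA, 3.84% TCACNCCA and 1.74% TCACGTGA. GAAANNGAA is in 8 of 12 promoters (66.7%) of the interferon-stimulated list, TGATGCAA in 6 of 30 (20%) of the stress regulator and amino acid lists, and TCACNCCA in 2 of 18 (11.1%) of the sterol enzyme lists. Over the genes called lower in cyproheptadine than in pizotifen (defined below), 21 of 137 promoters (15.3%) hold GAAANNGAA, and over those called higher 6 of 114 (5.26%) hold TGATGCAA. A match describes letters in this window and not a bound site.

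To find how far the transcriptomes lie apart, cyproheptadine was tested against pizotifen gene by gene with limma, with the collection day in the model, and genes with an adjusted p under 0.05 were called. By the labels, cyproheptadine replicates 1, 2 and 3 came from days 3, 2 and 3. Pizotifen replicates came from days 1, 2 and 3, so day 1 held no cyproheptadine sample. Of 13409 genes tested, 248 (1.85%) were called, 105 higher (0.783%) and 143 lower (1.07%) in cyproheptadine. Most differences were small: the median size among called genes was 0.32, 35 exceeded 0.5 and only Oasl2 exceeded 1. An unadjusted p under 0.05 was reached by 2166 genes. The 3 cyproheptadine and the 3 pizotifen samples did not overlap for 242 called genes (97.6%), against 23.1% of all tested genes. Called genes were picked by the difference between these same samples, so their share adds nothing to the calls. The number of calls changed when single libraries were left out, which also leaves fewer samples in a condition. The parts of the library and of the smaller group in this were not tested. The number was 87 without cyproheptadine replicate 1, 234 without replicate 2 and 36 without replicate 3, and it was 60, 51 and 38 without pizotifen replicates 1, 2 and 3.

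How alike the pair was is better read from intervals than from missing calls. Among the 9937 genes with a mean log2 abundance of at least 6, the 95% interval of the difference lay within 0.5 of 0 for 9566 (96.3%) and within 0.25 for 6444 (64.8%). It lay wholly beyond 0.5 for 5 genes. The Euclidean distance between the condition means was 15.1, rank 16 among the 105 pairs of STHdhQ111 conditions. Pizotifen was the nearest condition to cyproheptadine, followed by loxapine at 19.5 and meclizine at 21.1. Loxapine, at 12.3, was nearer to pizotifen than cyproheptadine was.

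Each condition was also set against the vehicle control. Cyproheptadine raised 2343 genes (17.5%) and lowered 2437 (18.2%), and pizotifen raised 1188 (8.86%) and lowered 1216 (9.07%). The mean of both changed 4482 (33.4%). These comparisons share the vehicle samples. Without vehicle replicate 1, pizotifen had 1376 calls in both directions together in place of 2404.

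The enzymes of cholesterol synthesis were raised by both conditions. All 8 mevalonate genes and all 12 genes from squalene to cholesterol were called higher than vehicle in each condition. Over all genes, 17.5% were in cyproheptadine and 8.86% in pizotifen. Between the conditions none of the 20 was called, and all 20 intervals of the direct difference lay within 0.5. These direct counts are near the background, where 1.85% of genes were called and 96.3% of those with a mean of at least 6 had an interval within 0.5. Sc5d, an enzyme late on the way to cholesterol, was at 10.86, 10.83 and 10.67 in cyproheptadine, 10.74, 10.57 and 10.74 in pizotifen and 10.04, 10.17 and 10.06 in vehicle. Every treated sample lay above every vehicle sample, and the treated groups overlapped, with a direct difference of 0.10 (SE 0.09, adjusted p = 0.645). Hmgcs1 had the most negative difference of these lists, -0.14 (SE 0.08, adjusted p = 0.406), with 12.71, 12.66 and 12.64 in cyproheptadine against 12.92, 12.63 and 12.86 in pizotifen.

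The median direct difference was 0.04 over the mevalonate genes and 0.02 over the squalene to cholesterol genes, beside 0.0028 over all tested genes. Pizotifen replicate 2 was the lowest treated sample in the latter list, with a list mean of 10.86 against 11.10 and 11.07 in the other pizotifen samples and 11.01 to 11.08 in cyproheptadine. Vehicle samples had 10.37 to 10.46. Insig1, which holds SREBP2 back when sterols are plentiful, rose by 0.87 in cyproheptadine and 0.71 in pizotifen against vehicle. None of the 12 genes of sterol sensing and transport and none of the 10 of fatty acid synthesis was called between the conditions, with all their intervals within 0.5, which is again near the shares of 1.85% and 96.3% over all genes.

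**Figure D1:**
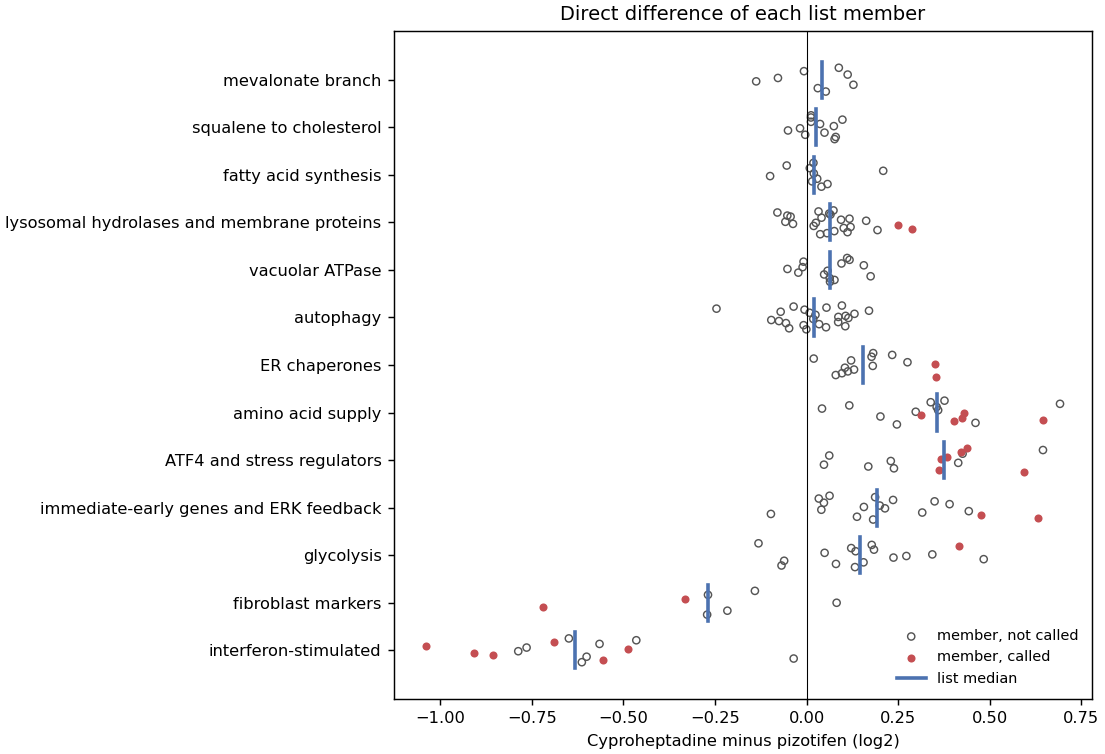
Direct difference, cyproheptadine minus pizotifen on the log2 scale (horizontal axis), of each tested member of 13 gene lists (rows); filled points were called by limma, open points were not, and the vertical bar is the list median. Sterol enzyme medians sit at 0.04 and 0.02, stress regulators at 0.38, amino acid supply at 0.36 and interferon-stimulated genes at -0.63.

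Stress regulators were raised by both conditions and stood higher in cyproheptadine. Against vehicle, 14 of 14 were called higher in cyproheptadine and 13 in pizotifen, beside 17.5% and 8.86% of all genes. All 14 direct differences were positive, with a median of 0.38, and 6 were called: Atf3, Atf4, Ddit4, Ero1l, Sesn2 and Vldlr, where 0.783% of all genes were. Atf4 itself was at 12.19, 12.21 and 12.24 in cyproheptadine, 11.87, 11.82 and 11.86 in pizotifen and 10.81, 10.95 and 10.97 in vehicle. The 3 groups did not overlap, and the direct difference was 0.36 (SE 0.09, adjusted p = 0.0321).

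Atf3 was at 8.72, 8.86 and 8.87 in cyproheptadine, 8.31, 8.11 and 8.24 in pizotifen and 7.20, 7.06 and 7.24 in vehicle. Again all treated samples were above vehicle, with cyproheptadine highest, and the direct difference was 0.59 (SE 0.14, adjusted p = 0.0241). Trib3, a pseudokinase induced by ATF4, rose against vehicle by 2.15 in cyproheptadine and 1.51 in pizotifen, and its direct difference of 0.64 (SE 0.21) was not called (adjusted p = 0.0966). Sesn2, an inhibitor of mTORC1 signaling, differed by 0.42, and Vldlr, a lipoprotein receptor, by 0.44. Ddit3 and Nupr1 had direct differences of 0.23 and 0.06 and were not called.

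Genes of amino acid synthesis and uptake followed the same order. All 16 were called higher than vehicle in cyproheptadine and 14 in pizotifen, beside 17.5% and 8.86% of all genes. All 16 direct differences were positive with a median of 0.36. Asns, Cth, Mthfd2, Psat1 and Psph, 5 of the 16, were called higher in cyproheptadine, where 0.783% of all genes were. Cth, which makes cysteine from cystathionine, was at 6.63, 6.84 and 6.94 in cyproheptadine, 5.98, 6.31 and 6.19 in pizotifen and 5.67, 5.62 and 5.48 in vehicle. The groups did not overlap, with a direct difference of 0.64 (SE 0.16, adjusted p = 0.0271). Slc7a11 was at 8.27, 8.42 and 8.33 in cyproheptadine and 7.55, 7.82 and 7.58 in pizotifen, against 6.24, 6.25 and 6.06 in vehicle. Its direct difference was the largest of the list at 0.69 (SE 0.23) and was not called (adjusted p = 0.107). Psph and Psat1 make serine, Mthfd2 serves mitochondrial folate metabolism and Asns makes asparagine, with differences of 0.43, 0.31, 0.42 and 0.40.

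The number of calls in these lists fell when single libraries were left out. The count of stress regulators called higher, 6 with all samples, was 4 without cyproheptadine replicate 1, 0 without replicate 2, 0 without replicate 3, and 1, 0 and 1 without pizotifen replicates 1, 2 and 3. For amino acid supply the counts were 2, 1 and 0 without cyproheptadine replicates 1, 2 and 3 and 0 without any pizotifen replicate. Without cyproheptadine replicate 1 the medians were 0.419 and 0.421, and all 14 and all 16 differences stayed positive.

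**Figure D2:**
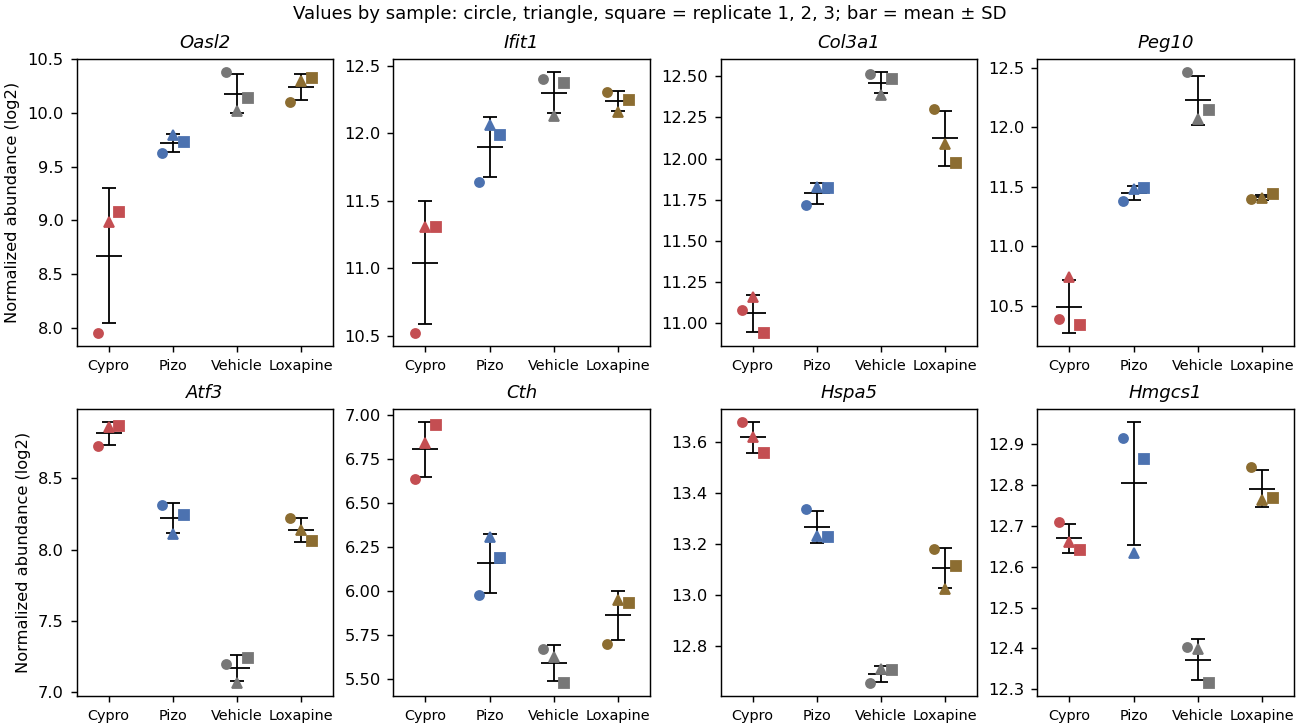
Normalized abundance (log2, vertical axes that do not start at 0) of 8 genes in the 3 samples each of cyproheptadine, pizotifen, vehicle and loxapine; circles, triangles and squares are replicates 1, 2 and 3, and bars give the mean and SD. Atf3, Cth and Hspa5 are highest in cyproheptadine, Peg10 and Col3a1 are lowest there, Hmgcs1 overlaps between the treated groups, and Oasl2 and Ifit1 are lowest in cyproheptadine replicate 1.

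Of 14 ER chaperones, Hspa5 and Calr were called higher in cyproheptadine, where 0.783% of all genes were. All 14 direct differences were positive, with a median of 0.15, and 12 intervals lay within 0.5. Hspa5 (BiP), the main ER chaperone, was at 13.68, 13.62 and 13.56 in cyproheptadine, 13.34, 13.23 and 13.23 in pizotifen and 12.66, 12.71 and 12.71 in vehicle. The groups did not overlap, and the direct difference was 0.35 (SE 0.08, adjusted p = 0.0262). Calr, a calcium-binding chaperone, differed by 0.35 (SE 0.08, adjusted p = 0.0206).

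Of the lysosomal genes 2 were called between the conditions, and of the autophagy genes none, beside 1.85% of all genes. Of 24 lysosomal genes, Ctsl (cathepsin L) and Gla (alpha-galactosidase A) were called higher in cyproheptadine, by 0.29 and 0.25, where 0.783% of all genes were. All 24 intervals lay within 0.5, with a median difference of 0.06. Ctsl was at 12.85, 12.93 and 12.97 in cyproheptadine, 12.61, 12.67 and 12.60 in pizotifen and 12.22, 12.21 and 12.20 in vehicle, without overlap. None of 14 vacuolar ATPase subunits and none of 24 autophagy genes was called directly, and all their intervals lay within 0.5, as did 96.3% of those over all genes with a mean of at least 6. Map1lc3b, which encodes LC3B of the autophagosome membrane, was at 10.93, 10.87 and 10.95 in cyproheptadine and 10.92, 10.84 and 10.91 in pizotifen, a difference of 0.02 (SE 0.05, adjusted p = 0.885). Its sign was negative, at -0.006, when only cyproheptadine, pizotifen and vehicle samples entered the fit.

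Among genes of signaling and metabolism, single members were called higher in cyproheptadine, where 0.783% of all genes were. Dusp4 and Dusp6, phosphatases that switch off ERK and related kinases, were higher in cyproheptadine by 0.63 and 0.48, and 17 of 18 immediate-early and ERK feedback genes had positive differences with a median of 0.19. Dusp6 was at 6.72, 6.59 and 6.71 in cyproheptadine, 6.01, 6.26 and 6.29 in pizotifen and 5.70, 5.74 and 5.66 in vehicle, without overlap. Egr1 and Fos were not called, with differences of -0.10 and 0.04. Of 16 glycolysis genes Slc2a1, the glucose transporter GLUT1, was called (0.42, SE 0.11, adjusted p = 0.0377), although its samples overlapped: 10.27, 10.81 and 10.68 in cyproheptadine and 9.94, 10.17 and 10.38 in pizotifen. The difference between the cyproheptadine and pizotifen samples taken at the same day and time was -0.11. Hlf of the circadian list and Txnrd1, thioredoxin reductase of the NRF2 list, were called higher by 0.30 and 0.20. No gene of the cell cycle, mitochondrially encoded or histone lists was called, which is near the share of 1.85% over all genes. Of the 13 mitochondrially encoded genes, 6 had an interval within 0.5 and 0 within 0.25. Their missing calls therefore do not show likeness.

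The receptors for which these drugs are known were scarcely measured. Hrh1, the histamine H1 receptor, lay at 1.05 to 1.12 in the 6 samples, near the lower end of the table, and 6 of 16 receptors and binding sites passed the minimum mean of 1. Tmem97, the sigma-2 receptor and a sterol-regulated protein, was called higher than vehicle in both, by 0.84 in cyproheptadine and 0.63 in pizotifen. Its direct difference of 0.20 (SE 0.08, adjusted p = 0.169) was not called. Htt was at 7.65, 7.84 and 7.80 in cyproheptadine, 7.79, 7.72 and 7.66 in pizotifen and 8.10, 8.10 and 7.92 in vehicle. Both conditions lay below vehicle, and they did not differ by a call (0.05, SE 0.08, adjusted p = 0.813).

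Several interferon-stimulated genes were called lower in cyproheptadine. All 14 of the list had negative differences with a median of -0.63, and 6 were called lower, among them Oasl2, Ifit3, Ifit1, Ddx58 and Irf9, where 1.07% of all genes were. Against vehicle, 12 of 14 were called lower in cyproheptadine and 0 in pizotifen by limma, where the list medians were -0.79 and -0.20. Over all genes, 18.2% and 9.07% were called lower. Among the 12 called genes with the largest negative difference and a mean of at least 6, Dhx58, Ifit3b, Rtp4, Xaf1, Gbp7, Irgm1 and Parp14, all known to respond to interferon, lay between -0.96 and -0.74. Each of them was called in only 1 or 2 of the 6 fits that left out a library. Dhx58, Rtp4, Xaf1, Gbp7 and Parp14 lost their calls with the collection time in the model. Ifit3b is a close copy of Ifit3, and reads may be shared between them.

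Oasl2 (chr5:114896936-114912234, GENCODE M21 on GRCm38) belongs to the family of oligoadenylate synthetases, which sense double-stranded RNA. It was at 7.95, 8.99 and 9.08 in cyproheptadine, 9.63, 9.79 and 9.73 in pizotifen, 10.38, 10.02 and 10.14 in vehicle and 10.11, 10.30 and 10.33 in loxapine. Cyproheptadine was below the others without overlap, replicate 1 lay about 1 below the other cyproheptadine samples, and the direct difference was -1.04 (SE 0.26, adjusted p = 0.0327). Ifit1, whose promoter is shown above, was at 10.52, 11.31 and 11.30 in cyproheptadine, 11.64, 12.06 and 11.98 in pizotifen and 12.40, 12.13 and 12.37 in vehicle. Here too replicate 1 was the lowest, and the direct difference was -0.86 (SE 0.20, adjusted p = 0.0241). Irf9, a transcription factor that carries the interferon signal, was at 8.44, 8.87 and 8.97 in cyproheptadine and 9.19, 9.24 and 9.31 in pizotifen.

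The number of interferon calls changed when single libraries were left out, and cyproheptadine replicate 1 stood apart. The mean of the 14 genes was 8.74 there, 9.40 and 9.52 in the other cyproheptadine samples, 9.79 to 9.91 in pizotifen, 9.93 to 10.14 in vehicle and 10.16 to 10.27 in loxapine. Without replicate 1 the median difference was -0.41, 13 of 14 were negative, 8 had an unadjusted p under 0.05 and limma called 0. The count was 6 and 3 without cyproheptadine replicates 2 and 3, and 2, 1 and 1 without pizotifen replicates 1, 2 and 3. Replicate 1 of cyproheptadine carries collection day 3 in the labels, where replicate 1 of every other condition but diacylglycerol kinase inhibitor II (DKI) carries day 1. In DKI the list mean was 8.88 in replicate 1, also of day 3, against 9.63 and 9.74. Replicates 3 of cyproheptadine and DKI, with 9.52 and 9.74, carry day 3 too. Samples of other conditions with the same day and time labels as both replicates 1 had 9.75 to 10.52, among them pizotifen replicate 3 with 9.90. The part of cyproheptadine replicate 1 in the result beyond these values was not tested.

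**Figure D3:**
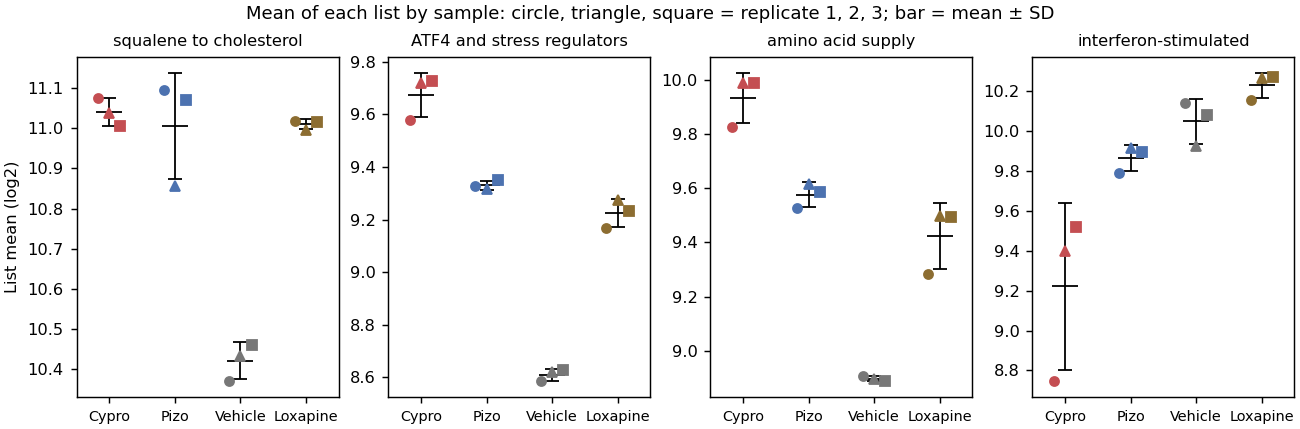
Mean log2 abundance over the members of 4 gene lists (vertical axes that do not start at 0) in each sample of cyproheptadine, pizotifen, vehicle and loxapine, with mean and SD bars; circles, triangles and squares are replicates 1, 2 and 3. The squalene to cholesterol list overlaps between cyproheptadine and pizotifen, both stress lists are highest in cyproheptadine, and the interferon-stimulated list falls to 8.74 in cyproheptadine replicate 1.

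Peg10 and Col3a1 were lower in cyproheptadine. Peg10 (chr6:4747306-4760517), an imprinted gene derived from a retrotransposon, was at 10.39, 10.74 and 10.33 in cyproheptadine, 11.38, 11.48 and 11.49 in pizotifen, 12.46, 12.07 and 12.14 in vehicle and 11.40, 11.40 and 11.44 in loxapine. Pizotifen lay at the level of loxapine and cyproheptadine below both, with a direct difference of -0.96 (SE 0.15, adjusted p = 0.00174). Col3a1 (chr1:45311538-45349706), a chain of type III collagen, was at 11.08, 11.16 and 10.94 in cyproheptadine, 11.72, 11.83 and 11.82 in pizotifen and 12.51, 12.39 and 12.48 in vehicle. The 3 groups did not overlap, and the direct difference was -0.72 (SE 0.13, adjusted p = 0.00481).

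Col3a1 also stands in the list of fibroblast markers. There 2 of 7 tested genes, Col3a1 and Pdgfrb, were called lower in cyproheptadine, where 1.07% of all genes were. Pdgfrb was called in 1 of the 6 fits that left out a library and lost its call with the collection time in the model. Of the 7 differences 6 were negative, with a median of -0.27, and the mean over the list was 10.86 to 10.98 in cyproheptadine, 11.17 to 11.18 in pizotifen and 11.40 to 11.51 in vehicle. Of the 7 tested progenitor markers 1 was called lower, where 1.07% of all genes were. It was Sox9, with a difference of -0.31 (SE 0.08, adjusted p = 0.0283). Sox9 was called in 1 of the 6 fits that left out a library, and not with only collection days 2 and 3. The median over the 7 markers was -0.0016, with 4 differences negative and 3 positive. The mean of the progenitor list was 7.77 to 7.84 in cyproheptadine and 7.86 to 7.97 in pizotifen, and none of these markers was at 0.

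After the values were seen, the called genes were ordered by how often they were called when each of the 6 libraries was left out in turn. Of the 248, 14 were called all 6 times, 45 at least 3 times and 56 never. Lower in cyproheptadine all 6 times were Peg10, Col3a1, Gprc5c, Sertad4, Col6a1, Plscr3, Arhgef40, Glis2, Igf2bp3 and Capn2. Higher all 6 times were Agpat5, Relt, Rpl5 and Lrrc39. Lrrc39 had a mean of only 1.43, near the minimum mean of 1, and a difference of 0.18. Col6a1, a chain of type VI collagen, was 12.88 ± 0.09 (SD, n = 3) in cyproheptadine, 13.33 ± 0.03 in pizotifen and 13.84 ± 0.06 in vehicle. Agpat5, an acyltransferase of the phosphatidic acid pathway, was 8.65 ± 0.04 in cyproheptadine, 8.31 ± 0.03 in pizotifen and 8.07 ± 0.03 in vehicle, so that pizotifen lay between the others. Rpl5, a protein of the large ribosomal subunit whose gene overlaps Snord21 and, on the other strand, Fam69a, was 11.25 ± 0.06 in cyproheptadine, 10.83 ± 0.05 in pizotifen and 11.04 ± 0.15 in vehicle. There the vehicle lay between the treated groups.

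The remaining genes with the largest positive differences were of mixed kinds. Prl2c2, a prolactin-family gene (proliferin) with near-identical copies that may share reads, was at 7.69, 7.92 and 8.10 in cyproheptadine, 7.09, 7.21 and 7.07 in pizotifen and 6.68, 6.00 and 6.67 in vehicle, a difference of 0.76 (SE 0.16, adjusted p = 0.0148). Itgb7, an integrin chain, and Ckb, brain creatine kinase, were higher by 0.57 and 0.52. Snhg8, a noncoding host gene of a small nucleolar RNA that overlaps Snora24, was at 7.76 to 7.78 in cyproheptadine, 7.18 to 7.50 in pizotifen and 7.26 to 7.76 in vehicle. Its difference of 0.42 (adjusted p = 0.0432) therefore did not come with a call against vehicle in either condition. Among the 12 genes that fell most in the mean of both conditions, Cyp26b1, which degrades retinoic acid, fell by 1.54 in cyproheptadine and 1.24 in pizotifen, and its direct difference of -0.30 was not called (adjusted p = 0.415).

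To ask whether the pair lies at different strengths along a common response, genes and signs were taken from loxapine against vehicle. These conditions share no sample with the pair, but the day effects that adjust the direct difference were estimated from all 48 samples. Loxapine changed 2938 genes (21.9%). Over the 2607 of them with a mean of at least 6, the direct difference, signed by the loxapine direction, had a median of 0.07, and 2007 genes (77%) lay farther along the response in cyproheptadine. Of the 106 that were called directly, 104 lay farther in cyproheptadine and 2 nearer. Loxapine-changed genes were called directly at 4.07% and other genes at 1.56%, with 114 of the latter. The sample scores, each a median relative to the 6 samples, were 0.05, 0.02 and 0.04 in cyproheptadine and -0.04, -0.04 and -0.03 in pizotifen, without overlap.

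**Figure D4:**
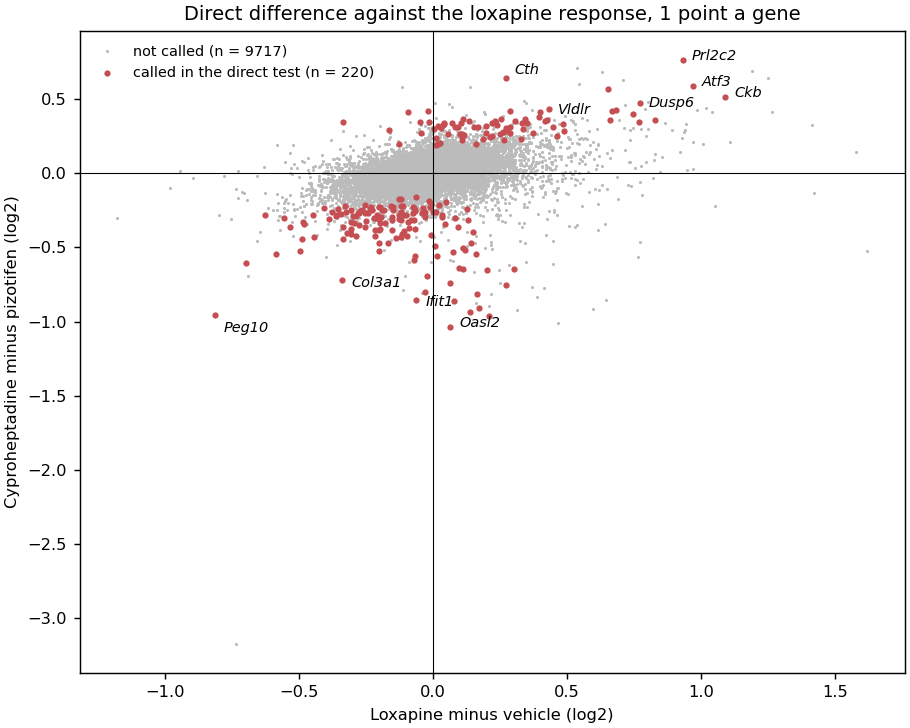
Cyproheptadine minus pizotifen (log2, vertical axis) against loxapine minus vehicle (log2, horizontal axis) for 9937 genes with a mean of at least 6; red points were called in the direct test. Stress genes such as Atf3 lie at the upper right and Peg10 at the lower left, while Oasl2 and Ifit1 lie low near a loxapine response of 0; the isolated point at -3.17 is the pseudogene Gm8290, which had an SD of 1.85 in cyproheptadine and was not called.

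The correlation of the direct difference with the loxapine response was 0.367 over 9937 genes, which are not independent and share library effects within each contrast. With the responses to meclizine and DKI (10 uM each) it was 0.549 and 0.617. The DKI samples carry the same collection days and times as the cyproheptadine samples, replicate by replicate. What this adds to the DKI values was not tested. Of the directly called genes on the meclizine response, 164 lay farther in cyproheptadine and 2 nearer. On the DKI response 197 lay farther and 2 nearer, so genes off the loxapine response are not off every response of the series. The sterol enzymes, all 20 called higher in loxapine, had loxapine medians of 0.57 (mevalonate) and 0.55 (squalene to cholesterol) beside direct medians of 0.04 and 0.02. Stress regulators had a loxapine median of 0.55 and a direct median of 0.38. The interferon-stimulated list had 0 genes called by limma for loxapine against vehicle, with a median of 0.13, and a direct median of -0.63. Lists with like loxapine medians thus had unlike direct medians, a description without a test.

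Each member of the pair was also tested against loxapine. Pizotifen differed from loxapine at 14 genes (0.104%) and cyproheptadine at 1405 (10.5%). Of the 248 genes called between the pair, 200 were also called between cyproheptadine and loxapine and 0 between pizotifen and loxapine. These comparisons share samples with the direct one. Against loxapine, 13 of 14 interferon-stimulated genes were called lower in cyproheptadine and 0 in pizotifen, where the list medians were -1.02 and -0.37.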

How the data were processed

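RNA-Seq values of the 6 cyproheptadine and pizotifen samples were analysed within the table of 48 samples. The authors prepared directional poly(A) libraries, trimmed reads with Trimmomatic 0.36, quantified them with RSEM on GRCm38.p5 and deposited normalized abundances, taken here as log2 values because some are negative. The transformation is not named and no counts could be recovered, so the depth is unknown and neither counting errors nor count models apply. From 27281 genes, 13409 with a symbol and a mean of at least 1 were tested with limma 3.58.1 in R 4.3.3, with a coefficient for each of 16 conditions and the collection day, 30 residual degrees of freedom and a variance trend. P-values were two-sided and adjusted after Benjamini and Hochberg, separately per comparison.

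The members and the gene lists were chosen with earlier results of these data known. Named genes are the 12 with the largest difference in each direction among those called that reach a mean of 6, the 12 that rose and the 12 that fell most in the mean of both conditions, in each list the called members or else the extremes, and a fixed few that include Htt, Hrh1, Tmem97 and Map1lc3b. Some genes that the rule names are not reported here by themselves and remain in the counts and medians of their lists. Other list members and the genes called in every fit without a library were named after their values were seen. The procedure was run on simulated data with independent noise for each gene and no effects of day or library. That run cannot show how single libraries or days bear on the calls. Replicate numbers did not pair the samples: residual correlations between same-numbered cyproheptadine and pizotifen samples were -0.0003, -0.193 and 0.0745. Plots used matplotlib 3.10.9 (Python 3.11.15).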

Additional observations from a re-analysis of the deposited data

How the results depend on the processing

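The 248 calls between cyproheptadine and pizotifen became 138 with no filter on low values, 436 without the collection day, 134 with the collection time as a further term, 26 with only collection days 2 and 3, and 134 without replicate 1 of both cyproheptadine and DKI, a setting chosen after seeing the data. They were 36 to 234 with a replicate left out. With the replicate number as a block in place of the collection day the count was 312, and the numbers did not pair the samples. Calls against vehicle ran from 3806 to 4752 for cyproheptadine and from 1376 to 2450 for pizotifen with a replicate left out, and pizotifen had 852 with days 2 and 3 only. The median along the loxapine response was 0.0981 with days 2 and 3 only, 0.093 when meclizine gave genes and signs, and 0.0638 to 0.0857 with a replicate left out. Intervals within 0.5 numbered 9367 to 9521, and the distance was 15.3 to 17.1.

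Interferon-stimulated genes called lower numbered 2 with no filter, 3 with genes lacking a symbol, 3 with the collection time, 1 with days 2 and 3, 1 without both replicates 1, and 0 to 6 with a replicate left out. Stress regulators called higher numbered 3 with no filter, 0 with days 2 and 3, and 0 to 4 with a replicate left out. Amino acid supply genes called higher numbered 1 with no filter, 2 with genes lacking a symbol, 2 with the collection time, 9 with only the compared samples and vehicle in the fit, 0 with days 2 and 3, and 0 to 2 with a replicate left out. Map1lc3b, at 0.02, reversed to -0.006 with only those samples and ran from -0.003 to 0.048 with a replicate left out, below 0 without pizotifen replicate 2. The causes were not tested. All 20 sterol enzyme intervals stayed within 0.5 in each fit without a replicate.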
